A study of Mus musculus with 28 samples.

Results

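The genes described here make, sense and break down prostaglandins. They were chosen by name from a list of 10: the cyclooxygenases Ptgs1 and Ptgs2, the prostaglandin E synthases Ptges, Ptges2 and Ptges3, the prostacyclin synthase Ptgis, the receptors Ptger2, Ptger4 and Ptgfr, and the degrading enzyme Hpgd. Every probe set that the platform's annotation gives to 1 of these symbols was taken, which found 17 probe sets of 8 genes among 34945 probe sets of 18193 genes. Ptges3 appeared only on 2 probe sets shared with its pseudogene, and Ptgs1 on none in the annotation used, so both were not analysed here.

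Prostaglandins are short-lived lipid signals made from arachidonate, a fatty acid that phospholipases release from membranes. A cyclooxygenase turns arachidonate into an unstable intermediate, and a terminal synthase turns that into prostaglandin E2, prostacyclin or another product, which acts on receptors of the cell that made it or of its neighbours. In fibroblasts the pathway is known for its part in wound repair, inflammation and the response to serum, with Ptgs2 as the step that is switched on quickly.

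Total RNA of 28 cultures was measured on Affymetrix arrays, 1 array per culture, in a study of how gene expression depends on glucose. The cells were NIH3T3 K-ras, called K-ras below, and NIH3T3, an immortalised line of mouse embryonic fibroblasts. Both were grown in DMEM with 10% newborn calf serum and 4 mM glutamine and were collected 18 h after seeding, at the medium change (0 h), and then after 24, 48 and 72 h at 1 mM or 25 mM glucose. Each of the 14 groups held 2 arrays labelled as biological replicates: K-ras at 1 mM for 24, 48 and 72 h, K-ras at 25 mM for 0, 24, 48 and 72 h, and NIH3T3 in the same 7 conditions. The labels give neither the K-ras allele nor its promoter, nor whether the line is 1 clone.

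All values are log2 ratios to a probe set's own median over the 28 arrays, so 0 is that median and 1 unit is a doubling. Absolute levels have been removed, and neither levels of different genes nor the absence of a gene, of marker genes included, can be read from them. Depth has no meaning for arrays, and precision is limited by 2 arrays a group. p-values measure the spread between these cultures only, and fewer cells expressing a gene cannot be told apart from less RNA per cell.

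A total of 6 arrays did not match their line in the cytokine Il33 and the keratin Krt14, which separated the lines everywhere else. In 11 arrays labelled K-ras, Il33 ranged over 1.26 to 3.11, and in 11 labelled NIH3T3 over -6.52 to -5.52. In the other 3 arrays labelled K-ras (25 mM 0 h replicate 1, 1 mM 48 h replicate 1 and 1 mM 72 h replicate 1) it lay between -6.14 and -5.64. In the other 3 labelled NIH3T3 (both at 1 mM 24 h and replicate 1 at 1 mM 48 h) it lay between 0.98 and 3.42. No array was moved to another group, and results that rest on these arrays are given with and without the 6. Calls made without them depend on having set them aside by 2 genes that differ between the lines. The spike-in control bioC was low, between -2.35 and -0.81, in 12 arrays, all labelled NIH3T3. It was low on every NIH3T3 array and on no K-ras array at 25 mM, so line and bioC level cannot be told apart there. The array of K-ras at 25 mM 72 h replicate 1 stood apart, with a bioC value of 2.94 and an interquartile range of 0.654, against at most 0.449 in the other 27. Fits that leave out replicate 2 of that group rest the group on this array alone, which limits what their calls say about the members.

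At 25 mM glucose the K-ras line had more RNA for Ptgfr and Ptges than NIH3T3, and no other member passed the test over the 4 times together. Ptgfr encodes the receptor for prostaglandin F2α, which signals through calcium. Ptges encodes the inducible, membrane-bound synthase that makes prostaglandin E2 and often works together with Ptgs2. Averaged over 0, 24, 48 and 72 h, 7 of the 17 probe sets passed an adjusted p of 0.05 in limma, all higher in K-ras (4 of 5 of Ptgfr and 3 of 3 of Ptges), where 10.0% of all 34945 probe sets passed, 4.89% as higher and 5.13% as lower. The median difference was 0.41 over the 17 member probe sets and -0.03 over all probe sets. The first median counts Ptgfr 5 times and Ptges 3 times, so it does not describe the pathway gene by gene. With 1 probe set a gene, 2 of 8 passed, where 11.3% of all 18193 did.

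The promoters of these 2 genes and of Ptgs2 are shown because these genes varied most over the arrays, Ptgfr and Ptges together and Ptgs2 apart from them. Each is the 250 bases before the start site that RefSeq (GRCm38.p6) lists for the promoter. They are printed 5′ to 3′ on the gene's strand, with matches to the searched motifs in capitals. Ptgfr lies on the minus strand at chr3:151798610-151837528, with its promoter at chr3:151837529-151837778. Ptges spans chr2:30889471-30931020 on the minus strand, and the promoter listed for it, chr2:30903298-30903547, lies inside that span. It is therefore not the sequence before the outer start of the gene. Ptgs2 lies on the plus strand at chr1:150100031-150108234, with its promoter at chr1:150099781-150100030.
Ptgfr: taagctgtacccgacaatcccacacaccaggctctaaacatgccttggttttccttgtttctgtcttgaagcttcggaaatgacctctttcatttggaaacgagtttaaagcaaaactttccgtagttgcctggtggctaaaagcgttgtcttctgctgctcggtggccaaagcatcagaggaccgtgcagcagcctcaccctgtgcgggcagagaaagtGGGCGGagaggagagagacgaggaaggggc
Ptges: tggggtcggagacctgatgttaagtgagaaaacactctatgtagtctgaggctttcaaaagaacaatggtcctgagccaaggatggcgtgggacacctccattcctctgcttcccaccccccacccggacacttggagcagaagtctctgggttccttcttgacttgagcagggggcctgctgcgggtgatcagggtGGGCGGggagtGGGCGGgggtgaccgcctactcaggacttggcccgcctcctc
Ptgs2: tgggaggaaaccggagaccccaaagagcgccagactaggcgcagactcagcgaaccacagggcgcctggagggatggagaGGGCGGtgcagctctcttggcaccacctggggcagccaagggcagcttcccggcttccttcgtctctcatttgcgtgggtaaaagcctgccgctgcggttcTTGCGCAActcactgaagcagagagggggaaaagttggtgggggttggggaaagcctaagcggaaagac
The motifs were searched on both strands. They were the TATA box, spelled TATAAA, the cyclic AMP response element, spelled TGACGTCA, and the E-box, spelled CACGTG. The AP-1 site was spelled TGANTCA with any base at N, the GC box GGGCGG, and the C/EBP palindrome TTGCGCAA. Ptgfr held 1 GC box (positions -30 to -25 from the start), Ptges held 2 and Ptgs2 held 1, a motif found in 32.7% of the 32851 promoters of the same length. Ptgs2 also held the C/EBP palindrome (positions -69 to -62), which 54 of the 32851 promoters held (0.2%). None of the 3 windows held the TATA box, cyclic AMP response element, E-box or AP-1 letters, which were found in 12.4%, 1.5%, 6.0% and 6.7% of all promoters. The RefSeq table held promoters of 9 of the 10 listed genes.

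Ptgfr was followed by 5 probe sets, and the one with the largest spread over the arrays (1420349_at) is given first. In K-ras at 25 mM it was -0.86 and 2.51 at 0 h, 2.66 and 3.02 at 24 h, 4.40 and 4.03 at 48 h, and 4.13 and 3.98 at 72 h. NIH3T3 at 25 mM gave -0.43 and -0.77 at 0 h, -0.87 and -0.70 at 24 h, -0.49 and -0.59 at 48 h, and -0.60 and 0.00 at 72 h. Every K-ras array lay above every NIH3T3 array except K-ras 0 h replicate 1, one of the 6 arrays with the other line's profile. The average difference was 3.54 ± 0.53 (SE, limma, adjusted p = 0.00327), or 11.6-fold, with a 95% interval of 2.42 to 4.66. With the 6 left out it was 3.96 ± 0.14 (limma, adjusted p = 6.09e-10). In that fit 8 of the 17 member probe sets passed, where 16.2% of all probe sets did, 7.76% as higher and 8.41% as lower. The lines then did not overlap, which was fixed in advance, since the only overlapping array was among those left out.

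**Figure D1:**
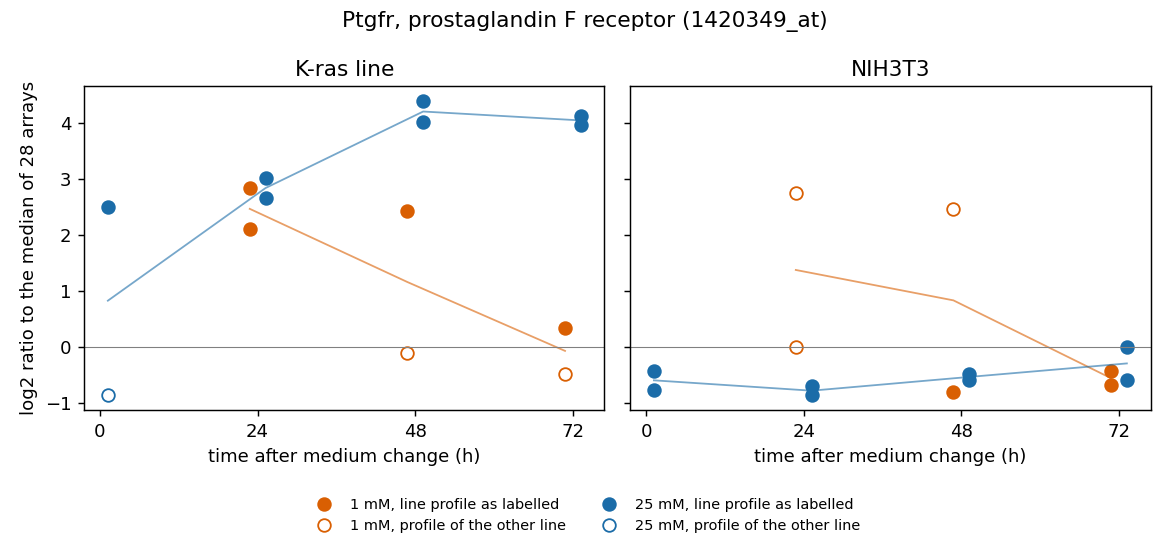
Ptgfr (probe set 1420349_at) by line, glucose and time, as log2 ratio to the median of the 28 arrays against hours after the medium change. Points are single arrays, open circles are arrays with the profile of the other line, and thin lines join group means. K-ras arrays at 25 mM reach 4.40 at 48 h, while NIH3T3 arrays at 25 mM stay between -0.87 and 0.00.

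The other Ptgfr probe sets gave 3.30 ± 0.47 (1453924_a_at), 1.78 ± 0.27 (1446331_at) and 1.12 ± 0.17 (1449828_at), with adjusted p between 0.00307 and 0.0033 in limma. The remaining probe set, 1440777_x_at, gave 0.24 ± 0.17 (limma, adjusted p = 0.454). It followed the other 4 less closely over the 28 arrays, with Pearson correlations of 0.49 to 0.57, against 0.87 to 0.99 among those 4. An x in a probe set's name marks probes that can also match other transcripts, so this one is the least certain measure of Ptgfr.

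By time, the Ptgfr difference between K-ras and NIH3T3 at 25 mM for 1420349_at was 1.43 ± 1.06 at 0 h, 3.63 ± 1.06 at 24 h, 4.75 ± 1.06 at 48 h and 4.35 ± 1.06 at 72 h. At single times no member probe set passed at 0, 24 or 48 h (limma; 0.00286%, 0.0286% and 0% of all probe sets passed, with 0.0229% higher at 24 h). An unadjusted p under 0.05 was found for 1, 5 and 7 of the 17 at these times, where 5.03%, 14.2% and 9.82% of all probe sets had one. At 72 h, 2 passed, both of Ptgfr and both higher in K-ras, where 0.704% of all probe sets passed: 1453924_a_at at 4.81 ± 0.94 (limma, adjusted p = 0.0335) and 1449828_at at 1.56 ± 0.33 (adjusted p = 0.0408). These calls hang on single arrays: neither was kept without NIH3T3 72 h replicate 1, without NIH3T3 72 h replicate 2 or without K-ras 72 h replicate 1. Leaving out K-ras 72 h replicate 2 rests that group on replicate 1, the array that stood apart. The calls of that fit are not read as results about the members. With the 6 out-of-place arrays left out, 5, 6, 7 and 7 member probe sets passed at 0, 24, 48 and 72 h, where 1.74%, 4.72%, 4.44% and 7.80% of all probe sets did, with K-ras then on 1 array at 0 h. All were of Ptgfr or Ptges and higher in K-ras, except Ptgis at 24 h, which was lower, and Ptgs2 1417263_at at 72 h, which was higher.

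Ptges, measured by 3 probe sets, was also higher in K-ras, with smaller differences. Its widest probe set (1439747_at) was -0.33 and 1.74 in K-ras at 25 mM 0 h, 1.79 and 1.44 at 24 h, 1.63 and 1.73 at 48 h, and 1.30 and 1.92 at 72 h. NIH3T3 at 25 mM gave -0.79 and -0.24 at 0 h, 0.00 and -0.37 at 24 h, -0.36 and -0.28 at 48 h, and -0.24 and -0.37 at 72 h. Apart from K-ras 0 h replicate 1, the K-ras arrays lay at 1.30 or above and the NIH3T3 arrays at 0.00 or below. The average difference was 1.74 ± 0.31 (limma, adjusted p = 0.00522), or 3.33-fold. Without the 6 arrays it was 1.99 ± 0.14 (limma, adjusted p = 3.13e-07), where 16.2% of all probe sets passed. The probe sets 1449449_at and 1449450_at gave 1.46 ± 0.29 (adjusted p = 0.00649) and 1.11 ± 0.27 (adjusted p = 0.0147). Without K-ras 0 h replicate 2, 1449450_at gave 0.97 ± 0.27 (limma, adjusted p = 0.0531) and no longer passed. With bioC as a block 0 of the 17 probe sets passed, where 0% of all probe sets did, and the difference was 2.03 ± 1.15 for Ptgfr 1420349_at and 0.63 ± 0.65 for Ptges 1439747_at (limma, adjusted p = 0.963 for both). The groups that hold both bioC levels are NIH3T3 at 1 mM 48 and 72 h, and in the 48 h group the array at the higher level is one of the 6. The cause of the lost calls was not tested.

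**Figure D2:**
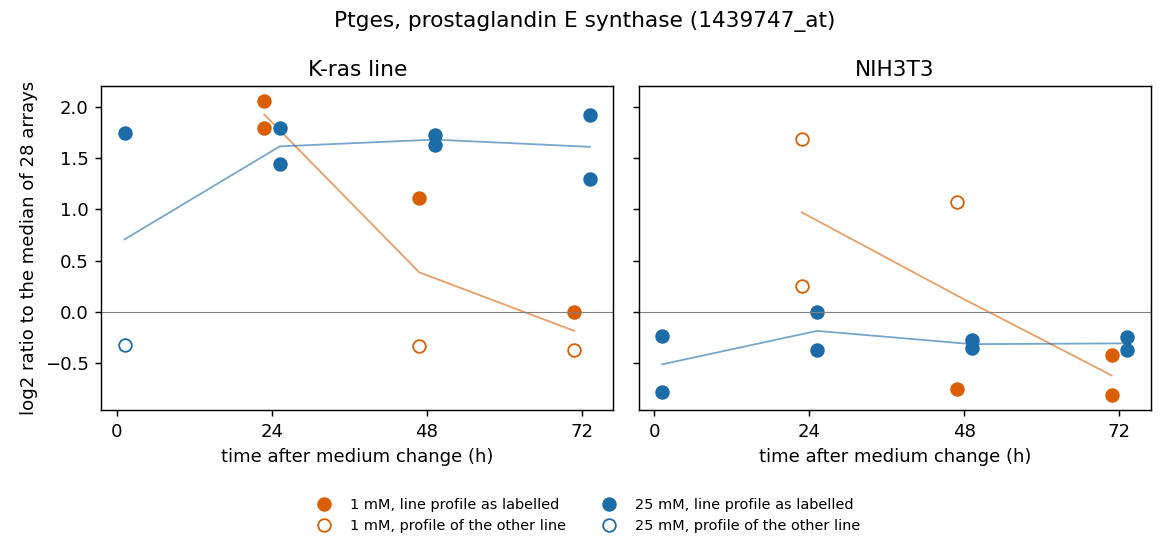
Ptges (probe set 1439747_at) by line, glucose and time, as log2 ratio to the median of the 28 arrays against hours after the medium change. Points are single arrays, open circles are arrays with the profile of the other line, and thin lines join group means. K-ras arrays at 25 mM from 24 h on lie between 1.30 and 1.92, above all NIH3T3 arrays at 25 mM.

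Over all 28 arrays Ptgfr and Ptges correlated at a Pearson r of 0.93, and Ptgs2 correlated with them at -0.02 and 0.08. These are descriptions, since the arrays share 2 lines. The genes whose values over the 28 arrays were most like Ptgfr were Has2 (r = 0.98), Dkk3 (0.97) and Bnc1 (0.96). For Ptges they were Cthrc1 (0.97), Cytip (0.97) and Bnc1 (0.96), and for Ptgs2 they were Mphosph10 (0.87), Myc (0.86) and Snhg16 (0.85).

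**Figure D3:**
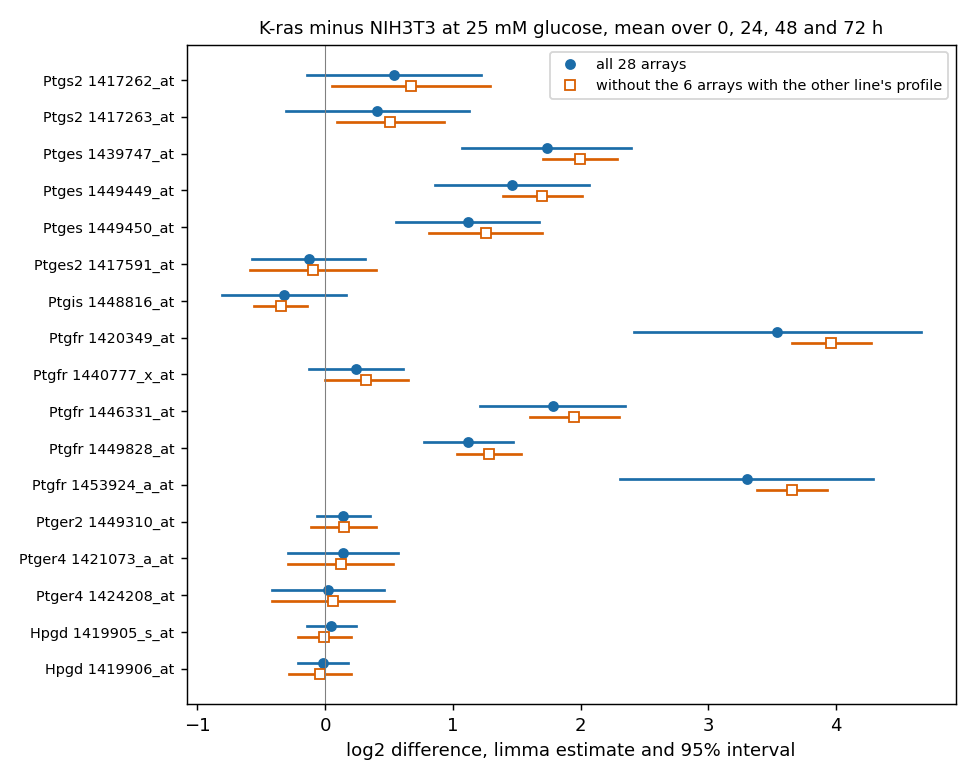
Difference between K-ras and NIH3T3 at 25 mM, averaged over 0, 24, 48 and 72 h, for the 17 member probe sets, in log2 units with 95% intervals. Filled circles use all 28 arrays and open squares leave out the 6 arrays with the other line's profile. Ptgfr at 3.54 and Ptges at 1.74 stand to the right of 0, and the members outside these 2 genes lie between -0.32 and 0.54.

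The members that did not pass in this comparison had smaller differences, from -0.32 to 0.54. Not passing does not show that a difference is near 0. Ptgs2 differed by 0.41 ± 0.34 (1417263_at, limma adjusted p = 0.525) and 0.54 ± 0.32 (1417262_at, adjusted p = 0.345). At 72 h alone Ptgs2 1417263_at gave 1.33 ± 0.68 (limma, adjusted p = 0.286), and 1.33 ± 0.36 (adjusted p = 0.0409) without the 6 arrays. Ptgis, which makes prostacyclin, gave -0.32 ± 0.23 (limma, adjusted p = 0.441). Without the 6 arrays Ptgis gave -0.35 ± 0.10 (limma, adjusted p = 0.0254), where 16.2% of all probe sets passed. In that fit Ptgis also passed at 24 h alone, at -0.71 ± 0.18 (limma, adjusted p = 0.0447), where 4.72% did. The differences of Ptges2, Ptger2, Ptger4 and Hpgd ranged from -0.13 to 0.14.

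Ptgs2, the inducible cyclooxygenase, fell with time at 25 mM glucose in NIH3T3. Its widest probe set (1417263_at) was 0.69 and -0.07 at 0 h, 0.22 and 0.26 at 24 h, -1.23 and -0.91 at 48 h, and -2.36 and -2.85 at 72 h. The 72 h arrays lay below all others of the course. The difference of 72 h from 0 h was -2.92 ± 0.68 (limma, adjusted p = 0.0214), a 7.55-fold fall, and that of 72 h from 24 h was -2.85 ± 0.68 (adjusted p = 0.0243). The other probe set, 1417262_at, gave -2.89 ± 0.64 (limma, adjusted p = 0.0173) and -2.67 ± 0.64 (adjusted p = 0.0258). These 2 were the only member probe sets to pass in either comparison, where 5.11% and 5.15% of all probe sets passed, 1.97% and 1.96% as lower and 3.14% and 3.19% as higher. None passed between 24 and 0 h (limma; 0.00572% of all probe sets; 0 of the 17 and 4.90% of all probe sets had an unadjusted p under 0.05).

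Each Ptgs2 call needs all 4 arrays of its comparison. Without 1 of them, the share of all probe sets that passed fell too. It went from 5.11% to between 0.0887% and 1.08% for 72 against 0 h, and from 5.15% to between 0.0315% and 1.64% for 72 against 24 h. Leaving out either replicate of either time gave -3.30 to -2.54 for 72 against 0 h and -3.09 to -2.60 for 72 against 24 h in 1417263_at, with adjusted p over both probe sets of 0.0771 to 0.159 in limma. None of these arrays was among the 6, and without those the adjusted p for 1417263_at was 0.000981 and 0.00143, where 9.61% and 8.91% of all probe sets passed. Fibroblast markers had a median difference of 1.41 between 72 and 0 h, with 1 of 10, Pdgfra, passing at 3.73 ± 0.79 (limma, adjusted p = 0.0141). Their mean log2 ratio was 1.23 and 0.98 on the 72 h arrays, against -0.44 and -0.74 on the 0 h arrays. Their part in the Ptgs2 result was not tested.

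In K-ras at 25 mM the same Ptgs2 probe set was 0.51 and 1.32 at 0 h, -0.03 and 0.37 at 24 h, -1.66 and -0.93 at 48 h, and -1.32 and -1.23 at 72 h. The 48 and 72 h arrays lay below the 0 and 24 h arrays, as in NIH3T3. The difference of 72 h from 24 h was -1.44 ± 0.68 for 1417263_at (limma, adjusted p = 0.523) and -2.31 ± 0.64 for 1417262_at (adjusted p = 0.488), so neither passed, where 0% of all probe sets did. An unadjusted p under 0.05 was found for 3 of the 17 and 9.49% of all probe sets. K-ras minus NIH3T3 in this time change was 1.41 ± 0.96 (limma, adjusted p = 0.523), with an interval of -0.61 to 3.43, so the courses were not shown to differ. Ptgfr 1449828_at gave 1.34 ± 0.33 between 48 and 24 h in K-ras (limma, adjusted p = 1) and 1.05 ± 0.33 between 72 and 24 h (adjusted p = 0.488). Without the 6 arrays, Ptgfr 1453924_a_at gave 1.81 ± 0.24 there (limma, adjusted p = 0.0332) and was the 1 member probe set to pass, where 0.0172% of all probe sets did. The fit without K-ras 25 mM 72 h replicate 2 rests that group on replicate 1, the array that stood apart. Its calls are not read as results about Ptgs2 or Ptges2.

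**Figure D4:**
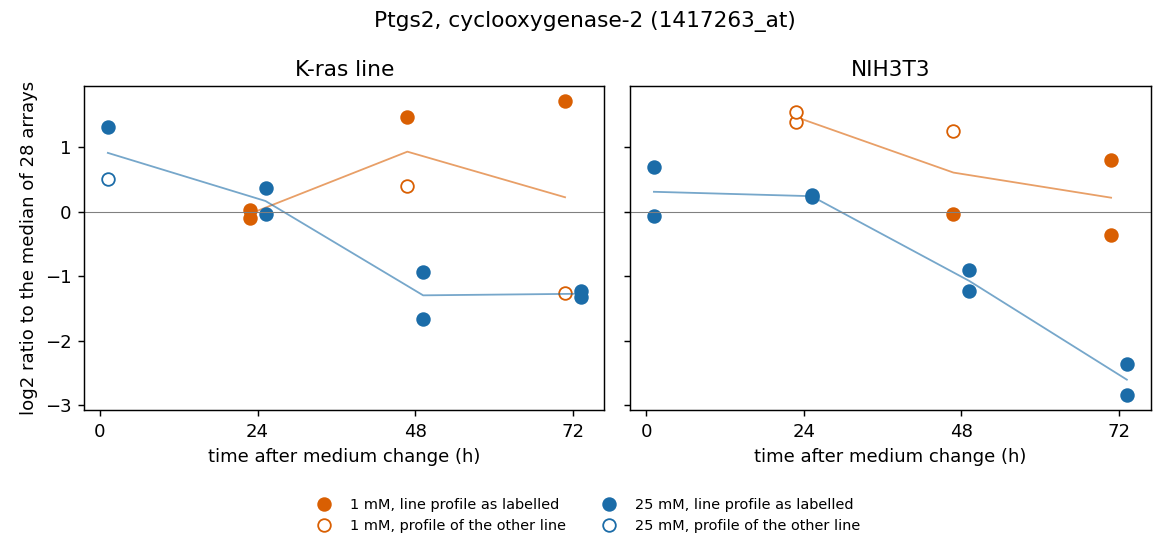
Ptgs2 (probe set 1417263_at) by line, glucose and time, as log2 ratio to the median of the 28 arrays against hours after the medium change. Points are single arrays, open circles are arrays with the profile of the other line, and thin lines join group means. At 25 mM both lines are lower at 48 and 72 h, down to -2.85 in NIH3T3, and at 48 h the 1 mM arrays of each line lie above its 25 mM arrays.

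At 72 h in 1 mM glucose, Ptgs2 was above its 25 mM value in NIH3T3. The 1 mM arrays read -0.36 and 0.80, against -2.36 and -2.85 at 25 mM, and did not overlap. The difference was 2.82 ± 0.68 for 1417263_at, or 7.08-fold, with an interval of 1.40 to 4.25 (limma, adjusted p = 0.297). For 1417262_at it was 1.83 ± 0.64 (adjusted p = 0.618). Neither passed, nor did any other member, where 0.00286% of all probe sets passed, and 3 of the 17 had an unadjusted p under 0.05, as 6.60% of all probe sets did. None of these 4 arrays was out of place, and in the fit without the 6, whose spread was smaller, 1417263_at passed (limma, adjusted p = 0.0134) where 0.0486% of all probe sets did.

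In K-ras at 72 h, Ptgs2 was -1.27 and 1.72 at 1 mM, against -1.32 and -1.23 at 25 mM. The 1 mM replicates were far apart, and the lower one is one of the 6 arrays. The difference was 1.50 ± 0.68 for 1417263_at (limma, adjusted p = 0.318) and 1.77 ± 0.64 for 1417262_at (adjusted p = 0.219). On the single remaining 1 mM array it was 2.99 ± 0.45 (limma, adjusted p = 0.003), a fit that takes this lone array to vary like the other groups.

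At the earlier times the Ptgs2 values at 1 mM were 0.39 and 1.47 in K-ras at 48 h, against -1.66 and -0.93 at 25 mM, and 1.25 and -0.03 in NIH3T3 at 48 h, against -1.23 and -0.91 at 25 mM. At both lines' 48 h every 1 mM array lay above every 25 mM array, with differences of 2.23 ± 0.68 in K-ras (limma, adjusted p = 0.978) and 1.68 ± 0.68 in NIH3T3 (adjusted p = 1). At 48 h 0% of all probe sets passed in either line, and 5 of the 17 member probe sets in K-ras and 1 in NIH3T3 had an unadjusted p under 0.05, as did 4.42% and 1.67% of all probe sets. At 24 h K-ras gave 0.03 and -0.09 at 1 mM, against -0.03 and 0.37 at 25 mM, which overlapped. NIH3T3 at 24 h gave 1.39 and 1.56 at 1 mM, both arrays being among the 6, against 0.22 and 0.26 at 25 mM. No member passed there (limma; 0.00858% of all probe sets passed; 1 of the 17 had an unadjusted p under 0.05, as did 15.1% of all probe sets). Averaged over K-ras at 24, 48 and 72 h and NIH3T3 at 48 and 72 h, an average chosen after the data were seen, the difference was 1.61 ± 0.30 (limma, adjusted p = 0.318). No member passed in it, where 0% of all probe sets did, and 6 of the 17 had an unadjusted p under 0.05, as did 7.09% of all probe sets. Leaving out the 6 gave 1.88 ± 0.19 (adjusted p = 0.00255). In that fit 0.300% of all probe sets passed, and among the members Ptgs2 1417263_at passed as higher and 3 probe sets of Ptgfr as lower. Ptgs2 1417263_at was also the 1 member probe set to pass without K-ras 25 mM 72 h replicate 2, where 0.632% of all probe sets did, and without K-ras 1 mM 72 h replicate 1, where 0.00286% did.

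In K-ras at 72 h, Ptgfr and Ptges read lower at 1 mM than at 25 mM, and 1 of their 8 probe sets passed the test with all arrays. Ptgfr 1420349_at read -0.48 and 0.33 at 1 mM, against 4.13 and 3.98 at 25 mM. Ptges 1439747_at read -0.37 and 0.00 at 1 mM, against 1.30 and 1.92 at 25 mM. Neither gene's groups overlapped, and the first replicate at 1 mM is one of the 6 arrays while the second has the K-ras profile.

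The Ptgfr differences were -4.13 ± 1.06 for 1420349_at (limma, adjusted p = 0.102), -4.71 ± 0.94 for 1453924_a_at (adjusted p = 0.0505) and -1.69 ± 0.33 for 1449828_at (adjusted p = 0.0499). That last one alone among the 17 passed, and fell, where 0.200% of all probe sets passed. The Ptges differences were -1.80 ± 0.63, -1.81 ± 0.57 and -1.64 ± 0.53, with adjusted p of 0.17 to 0.203 in limma. These comparisons share the K-ras 25 mM 72 h arrays with the line comparison at 72 h. Ptgfr 1449828_at passed in 1 of the 4 fits that leave out 1 of these arrays. That was the fit without replicate 2 at 25 mM, which rests its group on replicate 1, the array that stood apart. Without replicate 1 at 1 mM both Ptgs2 probe sets passed as higher and no Ptgfr probe set did, where 0.821% of all passed. No member passed without replicate 1 at 25 mM or replicate 2 at 1 mM, where 0.00286% and 0.432% of all passed, nor with the replicate number as a block, where 0.00286% did.

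Without the 6 arrays, which left 1 K-ras array at 1 mM 72 h, 9 of the 17 passed where 3.23% of all probe sets did. Ptgfr fell in 4 probe sets, with a log2 difference of -3.72 in 1420349_at (limma, adjusted p = 0.000129). Ptges fell in 2, at -1.61 in 1439747_at (adjusted p = 0.0138), and Ptgis fell, at -1.52 (adjusted p = 0.00291). Both Ptgs2 probe sets rose. In this fit 4 of 10 fibroblast markers also passed as lower, and the median of the 10 was -2.22, with Col1a1 at -4.00 ± 0.43. With all arrays 0 of 10 passed and the median was -1.10. The part of these markers in the fall of Ptgfr and Ptges was not tested.

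**Figure D5:**
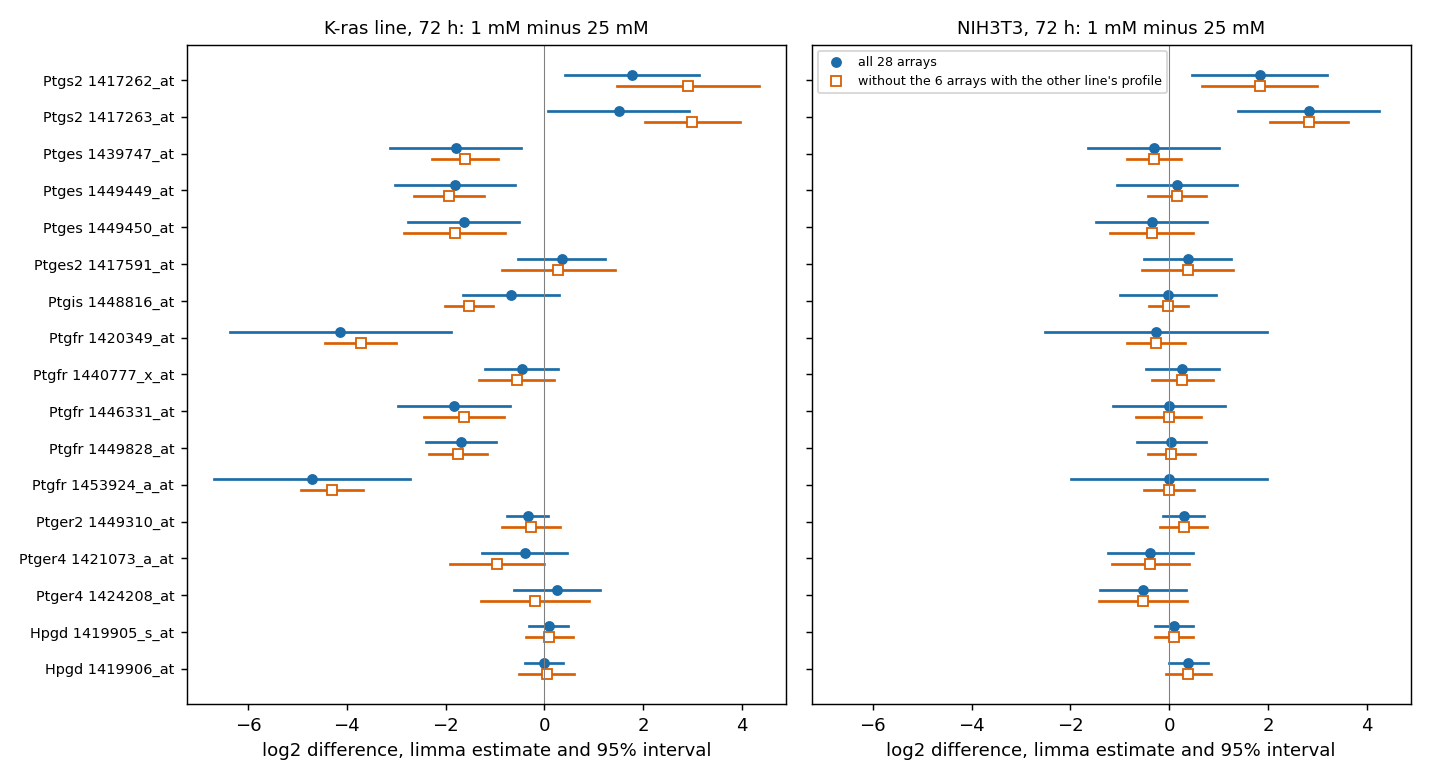
Difference between 1 mM and 25 mM glucose at 72 h for the 17 member probe sets in K-ras and in NIH3T3, in log2 units with 95% intervals. Filled circles use all 28 arrays and open squares leave out the 6 arrays with the other line's profile. Ptgs2 lies above 0 in both lines (1.50 in K-ras and 2.82 in NIH3T3 for 1417263_at), and Ptgfr and Ptges lie below 0 in K-ras.

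The K-ras array at 1 mM 72 h replicate 2 resembled a K-ras-profile array labelled NIH3T3, 1 mM 24 h replicate 1, more than any other array (Pearson r = 0.82 over all named probe sets). These 2 arrays also shared the lowest Ptgis values of the 28, -1.57 and -1.43, and Ptgfr values of 0.33 and 0.00, below the other 12 arrays with the K-ras profile. In the other K-ras-profile arrays labelled NIH3T3 at 1 mM, Ptgfr was 2.75 at 24 h and 2.47 at 48 h.

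At 24 h in K-ras no effect of low glucose on Ptgfr or Ptges passed the test. Ptgfr gave 2.11 and 2.84 at 1 mM, against 2.66 and 3.02 at 25 mM, and Ptges gave 1.80 and 2.06 at 1 mM, against 1.79 and 1.44 at 25 mM. The Ptgfr difference was -0.37 ± 1.06 with an interval of -2.61 to 1.87, which still allows a large fall, and no member passed, where 0% of all probe sets did (limma; 0 of the 17 and 0.781% of all probe sets had an unadjusted p under 0.05). At 48 h Ptgfr was -0.12 and 2.43 at 1 mM, against 4.40 and 4.03 at 25 mM, a difference of -3.05 ± 1.06 (limma, adjusted p = 1). The lower array is one of the 6, and without them the difference was -1.78 ± 0.33 (adjusted p = 0.847).

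In NIH3T3 at 72 h, Ptgfr was -0.69 and -0.44 at 1 mM, against -0.60 and 0.00 at 25 mM, and Ptges was -0.43 and -0.82 at 1 mM, against -0.24 and -0.37 at 25 mM. The differences were -0.27 ± 1.06 for Ptgfr, whose groups overlapped, and -0.31 ± 0.63 for Ptges, whose groups did not. The test of whether the glucose difference at 72 h differs between the lines, K-ras minus NIH3T3, was added after the data were seen. It gave -3.86 ± 1.50 for Ptgfr 1420349_at (limma, adjusted p = 0.339) and no member passed, where 0% of all probe sets did (6 of the 17 had an unadjusted p under 0.05, as did 11.6% of all probe sets). With the 6 left out, 5 members passed where 0.578% of all probe sets did: 3 probe sets of Ptgfr, 1 of Ptges and Ptgis. The fit without K-ras 25 mM 72 h replicate 2 rests that group on replicate 1, the array that stood apart, so its call is not read as a result.

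At 1 mM 72 h no member passed between the lines (limma; 0.114% of all probe sets passed, 0.0343% higher and 0.0801% lower in K-ras; 0 of the 17 and 12.4% of all probe sets had an unadjusted p under 0.05). Ptgfr was -0.48 and 0.33 in K-ras, against -0.69 and -0.44 in NIH3T3, a difference of 0.49 ± 1.06. Once the 6 were left out, Ptgis gave -1.65 ± 0.23 (limma, adjusted p = 0.000713) on 1 K-ras array and was the 1 member of 17 to pass, where 6.64% of all probe sets did.

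The remaining members varied less than the widest probe sets of Ptgfr, Ptges and Ptgs2, though Ptges2 and Ptger4 were at or above the median SD of all probe sets. Ptges2, a membrane-associated prostaglandin E synthase, had an SD of 0.43 over the 28 arrays, and its lowest value, -1.56, was on K-ras 25 mM 72 h replicate 1, the array that stood apart. Ptger2 and Ptger4 encode receptors for prostaglandin E2 that raise cyclic AMP. The SD of Ptger2 was 0.19, and its highest value, 0.54, came from the same array. Ptger2 in K-ras minus NIH3T3 at 25 mM 72 h gave 0.57 ± 0.20 (limma, adjusted p = 0.129). Ptger4 had SDs of 0.42 and 0.40 on its 2 probe sets, with both lowest values, -1.12 and -1.63, on NIH3T3 1 mM 72 h replicate 2. Hpgd, which oxidises prostaglandins to inactive forms, had an SD of 0.17 on both probe sets, and these correlated with each other at 0.28, against 0.90 for the 2 of Ptgs2 and 0.92 to 0.95 for the 3 of Ptges. No probe set of these 4 genes passed in any comparison with all arrays or without the 6. Ptger2 and Ptges2 passed only in fits without K-ras 25 mM 72 h replicate 2. Those rest that group on replicate 1, the array with the extreme value of each.

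Of 42 other genes of arachidonate release and prostanoid synthesis, transport, breakdown and reception, 40 were measured, each by its widest probe set. Between K-ras and NIH3T3 at 25 mM over all times, 4 of the 40 passed as higher and 3 as lower, where 4.89% and 5.13% of all probe sets did, with a median of -0.11 against -0.03 over all probe sets. Ephx2, an epoxide hydrolase, gave 1.48 ± 0.32 (limma, adjusted p = 0.00901) and Pla2g7, which breaks down platelet-activating factor, 1.39 ± 0.33 (adjusted p = 0.0136). Slco3a1, an organic anion transporter, gave -2.38 ± 0.51 (adjusted p = 0.00852) and Akr1c14, an aldo-keto reductase, -1.89 ± 0.58 (adjusted p = 0.0467). Without the 6 arrays 5 of the 40 passed as higher and 4 as lower, where 7.76% and 8.41% of all probe sets did. The prostacyclin receptor gene Ptgir was among the higher ones, at 0.67 ± 0.11 (limma, adjusted p = 0.00106).

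Between 72 and 0 h in NIH3T3 at 25 mM, 2 of the 40 passed, both higher, a share near the 5.11% of all probe sets: Alox5ap, a helper of leukotriene synthesis, at 1.83 ± 0.51 (limma, adjusted p = 0.0468) and Ptgr1, which reduces prostaglandin metabolites, at 1.61 ± 0.35 (adjusted p = 0.0163). At 1 mM 72 h the prostaglandin uptake carrier gene Slco2a1 was lower in K-ras, at -2.72 ± 0.51 (limma, adjusted p = 0.0496), the 1 call of the 40, where 0.114% of all probe sets passed. None of the 40 passed between 1 mM and 25 mM in either line at any time with all arrays. Without the 6 arrays, on 1 K-ras array at 1 mM 72 h, 4 of the 40 rose and 1 fell, where 3.23% of all probe sets passed, with the prostanoid exporter gene Abcc4 at 4.06 ± 0.80 (limma, adjusted p = 0.0148) and Slco2a1 at -2.80 ± 0.37 (adjusted p = 0.00139). Abcc4 was also at its lowest, -3.15, on K-ras 25 mM 72 h replicate 1, one of the arrays on the other side of that comparison.

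Among markers of other cell types, K-ras against NIH3T3 at 25 mM gave 1 higher and 1 lower of 10 leukocyte markers, 0 higher and 3 lower of 8 epithelial markers, Krt14 among them, and 1 higher of 6 endothelial markers. Of 10 fibroblast markers 1, Pdgfra, was higher. Over all probe sets 4.89% passed as higher and 5.13% as lower. The mean over the list ranged from -0.73 to 0.10 on the K-ras arrays and from 0.16 to 0.58 on the NIH3T3 arrays for epithelial markers, and from -0.17 to 0.01 and from 0.02 to 0.22 for leukocyte markers, with no overlap. The epithelial list holds Krt14, which was chosen from these data because it separates the lines, so its gap was partly fixed in advance. The median difference over that list was -0.16, against -0.03 over all probe sets. For endothelial markers the ranges were -0.17 to 0.27 and -0.23 to 0.27, and for fibroblast markers -0.47 to 0.81 and -1.11 to 1.23, which overlapped. The part of these markers in the Ptgfr and Ptges difference was not tested.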

How the data were processed

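The authors deposited 1 table of log2 values for 45101 probe sets on 28 arrays, 1 biotin-labelled sample per array. Per the submitters' processing notes the tool was RMA, which corrects background, normalises and summarises probes; its version is not given in the sources used here. In 45101 of 45101 deposited rows the median linear ratio over the arrays was 1 within 0.001, so deposited log2 values are relative to that median, with values between -6.64 and 6.37.

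Groups came from the labels. Symbols came from the platform annotation: 34945 probe sets had 1 symbol, 932 several, 9160 none and 64 were controls. Of the named ones 34741 matched RefSeq by Entrez number. limma 3.58.1 in R 4.3.3 (lmFit, eBayes) was fitted to the 34945 probe sets with 1 coefficient for each of 14 groups (residual degrees of freedom 14). Benjamini-Hochberg adjustment ran over all of them, and an adjusted p under 0.05 was called. Errors are standard errors from limma unless named SD. Each fold is 2 to the power of the absolute log2 difference. The comparisons of 48 with 24 h in K-ras, its difference between the lines, the difference between the lines in the glucose effect at 72 h and the average of 5 glucose comparisons, 4 in all, were added after the data were seen.

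Values of every member probe set are reported, and a gene is led by its most variable probe set (SD over the 28 arrays). Of other pathway genes, up to 4 that passed are named per comparison, by size, while Ptgir and the marker genes with values were singled out after their values were seen. The members and lists were chosen with earlier results of these data known.

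A planned filter on low values needed levels, which the table lacks, and a filter on the SD took its place. The fit was tested on simulated data. The alternatives tried were the block on replicate number, each array left out, the 6 arrays left out, quantile normalisation again, fitting only the compared arrays, array weights, bioC as a block, 1 probe set a gene and the SD filter. Other columns of per-sample values numbered 0. Figures used Python 3.11.15 and matplotlib 3.10.9.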

Additional observations from a re-analysis of the deposited data

Results flagged for a closer look

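In the fit without the 6 arrays that have the profile of the other line, the glucose difference at 72 h (1 mM minus 25 mM) differed between K-ras and NIH3T3 by a test of that difference itself. K-ras minus NIH3T3 gave -3.46 for Ptgfr 1420349_at (limma, adjusted p = 0.00355), -4.29 for Ptgfr 1453924_a_at (adjusted p = 0.00126), -1.80 for Ptgfr 1449828_at (adjusted p = 0.0371), -2.10 for Ptges 1449449_at (adjusted p = 0.047) and -1.50 for Ptgis (adjusted p = 0.0371). K-ras at 1 mM 72 h then rests on 1 array.

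In another 3 cases every array of one line lay on one side of its 25 mM group and every array of the other line on the opposite side, and the difference was not tested. K-ras minus NIH3T3 in the glucose difference at 24 h was -0.56 for Ptgfr 1449828_at and -2.15 for Ptgfr 1453924_a_at, where both NIH3T3 arrays at 1 mM have the K-ras profile. At 48 h it was -1.63 for Ptges 1449450_at, where 1 array of each line at 1 mM has the profile of the other. How often all probe sets split in this way was not counted. With 2 arrays a group such splits can arise by chance, so these 3 cases are descriptions only and do not show a difference between the lines.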

How the results depend on the processing

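Counts are member probe sets that passed, of 17. Without the 6 out-of-place arrays, counts between the lines at 25 mM were 5, 6, 7 and 7 at 0, 24, 48 and 72 h, 1 for the lines at 1 mM 72 h, 1 for 72 against 24 h in K-ras, 1 and 9 for glucose at 72 h in NIH3T3 and K-ras, 5 for its difference between the lines and 4 for the average over 5 glucose comparisons. The replicate numbers did not pair the samples: over 91 pairs of groups, deviations with the same number had a median correlation of -0.03, with 23 over 0.1. The replicate block left 1 for the lines at 72 h and 0 for glucose in K-ras at 72 h, with the other counts unchanged. Quantile normalisation again and array weights each gave 0 in both of these, and array weights gave 4 between the lines at 48 h, where 0.269% of all probe sets passed. Fitting only the compared arrays gave 5, 5 and 6 between the lines at 24, 48 and 72 h, where 4.19%, 1.23% and 2.18% passed, and 0 for glucose in K-ras at 72 h. With bioC as a block the line average, the lines at 72 h and glucose in K-ras at 72 h gave 0, and Ptges 1449450_at reversed to -0.13 in the line average. Keeping 1 probe set a gene, which by construction leaves 8 member probe sets, gave 2 for the line average, 0 for the lines at 72 h, 1 for each NIH3T3 time comparison and 0 for glucose in K-ras at 72 h. The SD filter, which leaves 14 member probe sets, gave 4 for the lines at 72 h and 2 for glucose in K-ras at 72 h, where 3.52% and 0.441% passed. Leaving out 1 array at a time gave 6 to 7 for the line average, 0 to 4 for the lines at 72 h, 0 to 0 for both NIH3T3 time comparisons, 0 to 2 for 72 against 24 h in K-ras, 0 to 3 for glucose in K-ras at 72 h, and 0 to 1 for both the average over 5 glucose comparisons and the difference between the lines. Counts over all probe sets moved too: between 1 and 4691 of 34945 for the lines at 72 h, 0 and 3714 for 72 against 24 h in K-ras, and 1 and 4036 for glucose in K-ras at 72 h. The causes were not tested. In all, 240 recomputed counts stayed within 1.5 times the main count and 51 did not. Most comparisons had a main count of 0, so many of the 240 set 0 against 0 and say little about stability.

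The main limits are 2 arrays a group, 6 arrays that do not match their label, no signal over background, and a bioC split that coincides with the line at 25 mM.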
